A study of Homo sapiens with 12 samples.

Results

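Regions opened by SOX2 were sought in U2OS, a human osteosarcoma cell line, by setting the ATAC-seq peak list of cells with a full-length SOX2 construct against the list of the wild type of the same experiment. ATAC-seq maps open chromatin through the insertion of sequencing adapters by the Tn5 transposase. The SOX2 group held 2 samples of genotype Tet-on SOX2FL, treated with doxycycline at 500 ng/ml for 4 days so that the construct was expressed from a doxycycline-inducible promoter. The wild-type group held 2 samples whose title names the SOX2 cell line and whose genotype and treatment fields are NA. Whether these were parental cells or the uninduced line is therefore not known, and neither is whether they received doxycycline, which the general protocol text gives for every sample. Nothing in the labels says how many clones the line came from.

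Each group had 1 peak list, in the layout of the IDR procedure, which pairs the peaks of 2 inputs and scores how well they reproduce. That the inputs were the 2 samples of the group is not stated. A list holds an entry only where both inputs had a peak, so a region without a wild-type entry may still have had a peak in 1 wild-type input. The strength of a region is given here as the −log10 p of its entry, which is that of the weaker input, and read depth is unknown. The SOX2 list held 147763 entries on chromosomes 1 to 22 and X and the wild-type list 110813, and entries that shared at least 1 bp were merged into 182125 regions. Of these, 72605 had an entry in the SOX2 list only and are called gained, 35759 had one in the wild-type list only and are called lost, and 73761 had both and are called shared. Gained regions thus made up 39.9% of all regions and lost regions 19.6%. With 1 list per group there is no spread between replicates and no test. Wilson 95% intervals are given for shares and cover counting error only.

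SOX2 is a transcription factor of the SOXB1 family that binds DNA through its HMG box, bending the helix at the minor groove. It is known as a pioneer factor, able to bind sites wrapped in nucleosomes, and maintains pluripotent stem cells and neural progenitors. Osteosarcoma cells are of mesenchymal origin. Accessible chromatin at gene starts is largely common to all cell types, while distal open regions, many of them enhancers, differ between them.

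The upstream sequences of the gene starts with the strongest gained and lost regions are shown first, because they let the letters of the SOX motif be read at places that differed between the lists. Each is the 200 bases before a RefSeq start on GRCh38.p14, written 5′ to 3′ on the strand of the gene. Capitals mark the SOX motif, searched as AACAATG or AACAAAG on both strands. LGSN lies at chr6:63319984-63320183 on the minus strand, ERMN at chr2:157325825-157326024 on the minus strand, RAI14 at chr5:34684307-34684506 on the plus strand and MOBP at chr3:39467480-39467679 on the plus strand. These 4 were the strongest gained ones with the motif within the 200 bases printed. DIPK1A, at chr1:92877151-92877350 on the minus strand, was the strongest gained one without it in those bases.
LGSN: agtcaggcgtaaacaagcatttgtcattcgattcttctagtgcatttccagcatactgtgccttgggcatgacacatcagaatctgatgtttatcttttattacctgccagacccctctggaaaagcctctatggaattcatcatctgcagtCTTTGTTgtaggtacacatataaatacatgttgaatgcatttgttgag
ERMN: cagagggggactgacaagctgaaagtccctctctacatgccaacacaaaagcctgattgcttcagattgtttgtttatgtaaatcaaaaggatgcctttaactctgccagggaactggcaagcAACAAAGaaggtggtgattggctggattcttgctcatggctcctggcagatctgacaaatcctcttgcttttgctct
RAI14: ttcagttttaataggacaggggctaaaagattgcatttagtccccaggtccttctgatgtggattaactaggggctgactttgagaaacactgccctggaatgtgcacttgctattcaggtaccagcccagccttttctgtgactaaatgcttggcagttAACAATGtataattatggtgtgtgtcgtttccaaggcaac
MOBP: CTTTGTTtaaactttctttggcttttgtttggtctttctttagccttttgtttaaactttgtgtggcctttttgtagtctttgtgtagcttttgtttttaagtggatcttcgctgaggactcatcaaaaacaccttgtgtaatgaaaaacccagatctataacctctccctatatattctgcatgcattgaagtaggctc
DIPK1A: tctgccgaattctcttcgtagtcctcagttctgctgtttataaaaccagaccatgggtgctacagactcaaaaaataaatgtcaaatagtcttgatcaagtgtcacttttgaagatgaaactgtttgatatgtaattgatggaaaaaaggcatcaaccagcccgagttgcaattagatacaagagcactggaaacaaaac

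Both of the strongest lost ones lacked the motif in the bases printed. They were TSPAN4, at chr11:843905-844104 on the plus strand, and LFNG, at chr7:2517663-2517862 on the plus strand.
TSPAN4: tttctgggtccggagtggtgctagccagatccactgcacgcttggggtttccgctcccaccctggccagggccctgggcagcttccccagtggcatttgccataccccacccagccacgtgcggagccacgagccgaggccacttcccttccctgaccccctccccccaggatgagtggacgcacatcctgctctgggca
LFNG: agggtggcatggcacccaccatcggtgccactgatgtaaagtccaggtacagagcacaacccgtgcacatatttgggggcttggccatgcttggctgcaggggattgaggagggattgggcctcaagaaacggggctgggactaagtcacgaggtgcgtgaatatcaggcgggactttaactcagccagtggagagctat

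The gained region over the LGSN start, a gene for a lens protein of the glutamine synthetase family, had −log10 p values of 28.9 and 38.8 in inputs 1 and 2 of the SOX2 list. At ERMN, which encodes a cytoskeletal protein of oligodendrocytes, the values were 17.6 and 17.1. At RAI14, which encodes an actin-binding ankyrin repeat protein, they were 16.8 and 17.5. At MOBP, the gene of a myelin protein of oligodendrocytes, they were 12.8 and 11.9. At DIPK1A they were 35.7 and 27.9. MOBP was not among the 12 strongest gained starts. The others of those 12 were USP54 (26.9 and 30.5), SLAIN1 (24.3 and 27.5), ANKUB1 (18.6 and 18.3), CNKSR3 (18.2 in both), XDH (17.7 and 18.96), CLCA4 (16.01 and 15.5), RABGAP1L (16.6 and 15.1) and SPMIP8 (14.2 and 22.4). The wild-type entry over the TSPAN4 start, a tetraspanin gene, had values of 20.2 in both inputs. Over LFNG, the gene of a glycosyltransferase that modifies Notch receptors, they were 30.9 and 19.2. The next lost starts were S100A12 (23.8 and 17.9), PTPN22 (15.8 and 17.6) and RBPJ (20.9 and 14.1), the gene of the DNA-binding factor of the Notch pathway.

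Gained regions lay away from gene starts. Of the 68290 gained regions outside chromosome 8, for which the start table held no entry, 706 lay within 1 kb of a protein-coding gene start, a share of 1.03% (interval 0.961 to 1.11%). Lost regions did so in 2.65% of cases (2.48 to 2.83%) and shared regions in 15.7% (10968 of 69739). More than 100 kb from any start lay 53.4% of gained, 42.8% of lost and 34.5% of shared regions, and the median distances were 116030, 74380.5 and 48345 bp. The shares of gained and lost regions do not overlap in their intervals within 1 kb. The share at starts moved with the call rule, as the closing values show, but under each alternative tried it was lower for gained than for lost regions.

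**Figure D1:**
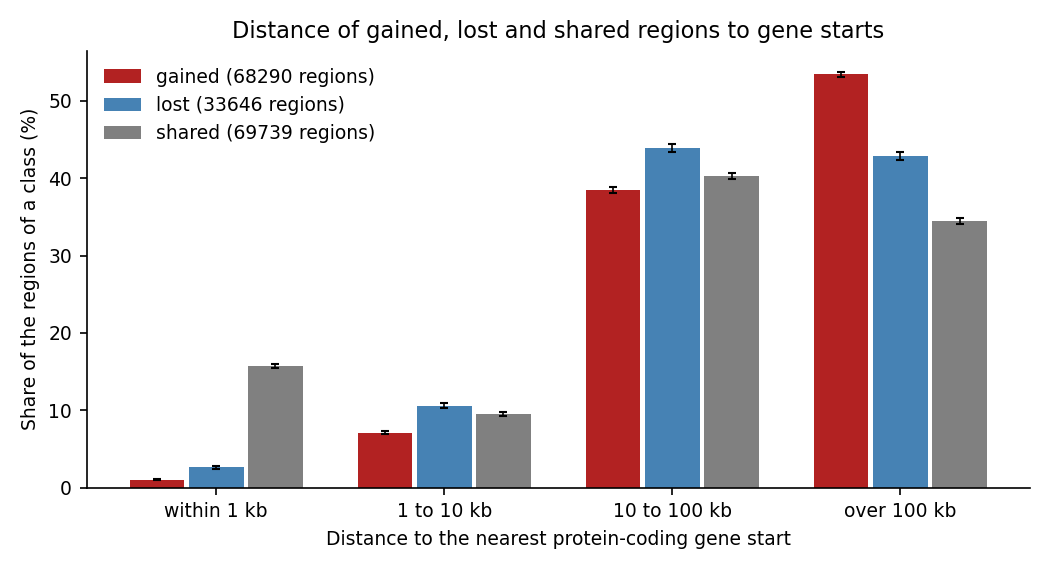
Share of gained, lost and shared regions (y axis, %) by distance to the nearest protein-coding gene start (x axis), with chromosome 8 left out. Bars are shares and error bars Wilson 95% intervals. The shared bar stands highest within 1 kb (15.7%) and the gained bar highest beyond 100 kb (53.4%).

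Over whole genes the classes were closer. Gained regions lay within protein-coding genes in 40.8% of cases, lost regions in 43.3% and shared regions in 50.6%. In gene deserts the order turned. More than 500 kb from any protein-coding gene lay 13.5% of gained, 5.90% of lost and 5.43% of shared regions. Included are the 30 windows of 1 Mb with 60 or more gained regions described below, 27 of them with no or 1 gene. These windows held 3.50% of gained, 0.727% of lost and 1.36% of shared regions, and the desert shares are not given without them. Gained regions were narrower than shared ones, with a median width of 457 bp (quartiles 331 and 618) against 809 bp (582 and 1086), and lost regions were narrower still at 392 bp (286 and 558). A shared region is the merged span of entries of both lists, so part of this difference is built in. The peaks of input 1 of the SOX2 list had median widths of 352 bp in gained and 531 bp in shared entries. In input 2 they were 378 and 555 bp. In all, gained regions covered 35.8 Mb, lost regions 16.02 Mb and shared regions 64.2 Mb.

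Gained regions were weak as a class. Their median −log10 p was 4.69, against 3.93 in lost regions and 8.09 for the SOX2 entries of shared regions. A global IDR of at most 0.05, a usual limit for a reproducible peak, was met by 30.2% of gained and 16.7% of lost regions, against 59.0% of shared regions in the SOX2 list and 56.9% in the wild-type list. The strongest gained regions exceeded the strongest lost ones: 1641 gained regions reached a −log10 p of 20, and 176 lost regions did. Since −log10 p follows the depth of a library, the same value need not stand for the same signal in both lists. When the SOX2 list was shortened to its strongest entries, as many as the wild-type list held, 47459 regions were gained and 47047 lost. These are close to each other by construction, so the excess of gained over lost regions in the full lists went with the greater length of the SOX2 list. Of the lost regions, 70.6% had a SOX2 entry within 10 kb, and of the gained regions 48.3% had a wild-type entry that near. Within 200 bp of an entry of the other list lay 1.30% of gained and 3.42% of lost regions, so few calls rested on entries that only just failed to touch.

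In classes of strength, gained and shared regions were placed by their SOX2 entry and lost regions by their wild-type entry. At a strength of 20 and over shared regions stood furthest from the other classes at gene starts. Within 1 kb of a start lay 48.8% of these shared regions (n = 11173 outside chromosome 8), 1.22% of the lost (2 of 164) and 0.467% of the gained (7 of 1499). The intervals of lost (0.335 to 4.34%) and gained regions (0.226 to 0.961%) overlapped in this class. For regions under 5 the shares were 6.87%, 2.97% and 1.26%. Strong shared regions were thus often promoters, while the shares of gained and of lost regions at starts were lower in each stronger class.

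Lists that took no part in the calls came from 2 further samples titled as U2OS wild type. Their titles name no construct. They are taken here as the wild type of the FOXA2 experiment of the series, which the titles do not state. The lists held 19862 and 25088 peaks in replicates 1 and 2, far fewer than the lists compared. Both had a peak in the FOXA2 gene (at chr20:22581848-22582527 with a −log10 p of 9.08, and at chr20:22581827-22582860 with 44.2) at a place where the SOX2 and wild-type lists compared here had no entry, and they are referred to here as libraries labelled wild type. Of the gained regions, 0.548% had a peak in replicate 1 and 2.30% in replicate 2, a mean of 1.42% ± 1.24 (SD, n = 2). Of the lost regions 2.03% and 2.84% did (2.44% ± 0.571, SD, n = 2), and of the shared regions 23.8% and 22.1% (22.97% ± 1.19, SD, n = 2). The share of lost regions was above that of gained regions in each of the 2 libraries, and both stood well below shared regions.

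Strength parted them. Among lost regions the share with a peak in replicate 1 was 0.688% under 5, 2.42% from 5, 13.2% from 10 and 46.6% (interval 39.4 to 54.0%) from 20. In replicate 2 it was 1.83%, 3.65%, 9.94% and 25% (19.2 to 31.9%). Among gained regions it was 0.563%, 0.672%, 0.218% and 0.366% (0.168 to 0.795%) in replicate 1, and 2.38%, 2.30%, 1.99% and 2.07% (1.49 to 2.88%) in replicate 2. Strong regions of the wild-type list thus had peaks in independent cells labelled wild type far more often than gained regions of the same class, in each of the 2 libraries.

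**Figure D2:**
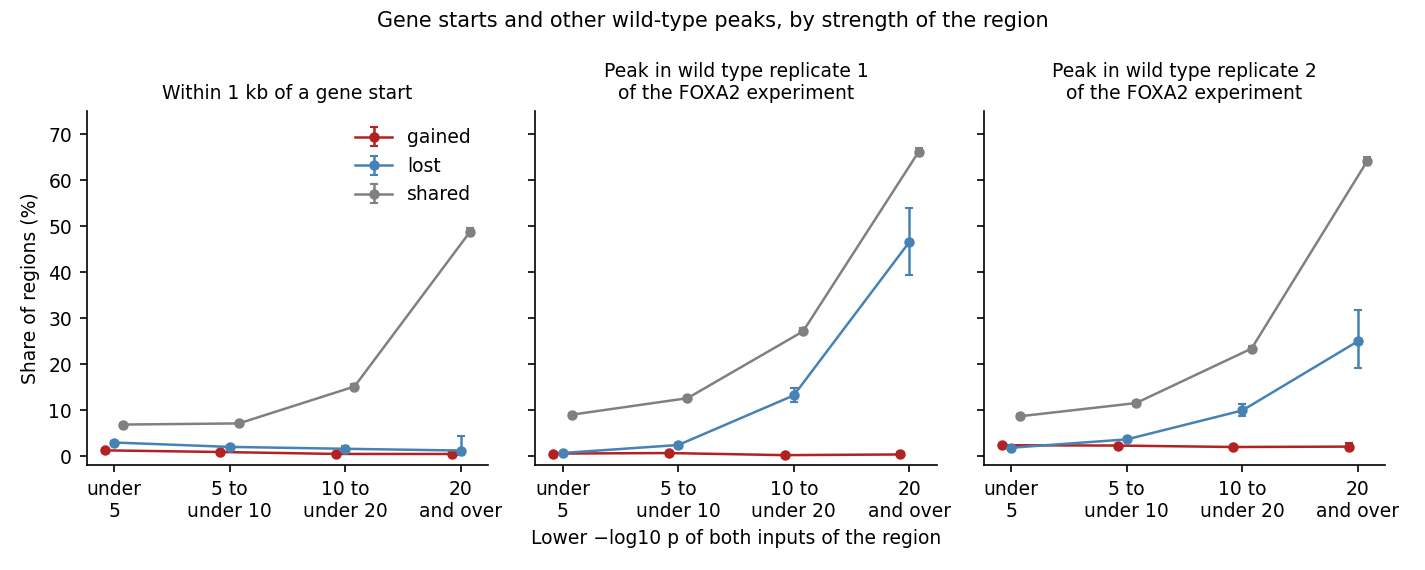
Share of gained, lost and shared regions (y axis, %) by the lower −log10 p of both inputs (x axis, 4 classes). The value is that of the SOX2 entry for gained and shared regions and of the wild-type entry for lost ones. Left, regions within 1 kb of a gene start. Middle and right, regions with a peak in each wild-type list taken here as that of the FOXA2 experiment. Points are shares and bars Wilson 95% intervals. Shared and lost regions climb with strength in the middle and right panels, to 66.2% and 46.6% in replicate 1, while gained regions stay under 3%.

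A further group, with a construct that joins SOX2 to the CTD of FOXA2, also had 1 list. Its samples had the same treatment as the SOX2 group, doxycycline at 500 ng/ml for 4 days. It too took no part in the calls, and it shares no library with them by its labels. Of the gained regions 74.3% (interval 74.0 to 74.7%) had an entry in that list at any IDR, against 27.8% (27.4 to 28.3%) of the lost and 91.9% (91.7 to 92.1%) of the shared regions. For gained regions the share was 58.4% under a strength of 5, 90.3% from 5, 99.5% from 10 and 100% (1641 of 1641) from 20. For lost regions it was 22.04%, 36.8%, 56.6% and 75.6%, and for shared regions 76.8%, 94.8%, 99.8% and 100%. Where only entries at a global IDR of at most 0.05 counted, 97.3% of the gained, 19.9% of the lost and 92.0% of the shared regions from 20 had one. Each of the strongest gained regions thus had an entry with a second SOX2 construct, which was not particular to them, since each of the strongest shared regions had one too. Most of the strongest lost regions had an entry there that missed the IDR limit. The treatment of the wild-type group is not known, so construct and doxycycline cannot be told apart in this overlap.

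Each gained region had a peak in both inputs of the SOX2 list, which an entry requires, so closeness of the inputs is partly built in. Gained regions had a median −log10 p of 5.64 in input 1 and 5.23 in input 2. In 91.6% of them the values were within 2-fold of each other. Under a strength of 5, where most gained regions lay (n = 39451), this share was 86.8%. The IDR limit for a reproducible peak was met by 30.2% of gained and 16.7% of lost regions. Values within 2-fold therefore do not by themselves show that a region was reproducible. Across gained regions the inputs had a Spearman correlation of 0.687 (n = 72605), described without a p since regions share a library and its depth and since an entry needs a peak in both. Lost regions had medians of 4.20 and 4.68, 88.4% within 2-fold and a correlation of 0.527 (n = 35759). Shared regions had correlations of 0.807 in the SOX2 list and 0.764 in the wild-type list. Classes of strength are set by the lower of the same 2 values, so no correlation is given within them. A value of at least 10 in 1 input beside one under 5 in the other was found in 963 gained regions (1.33%) and 539 lost regions (1.51%). The peaks of the inputs overlapped by a median of 65.1% of their joint span in gained, 56.5% in lost and 75.5% in shared regions of the SOX2 list.

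**Figure D3:**
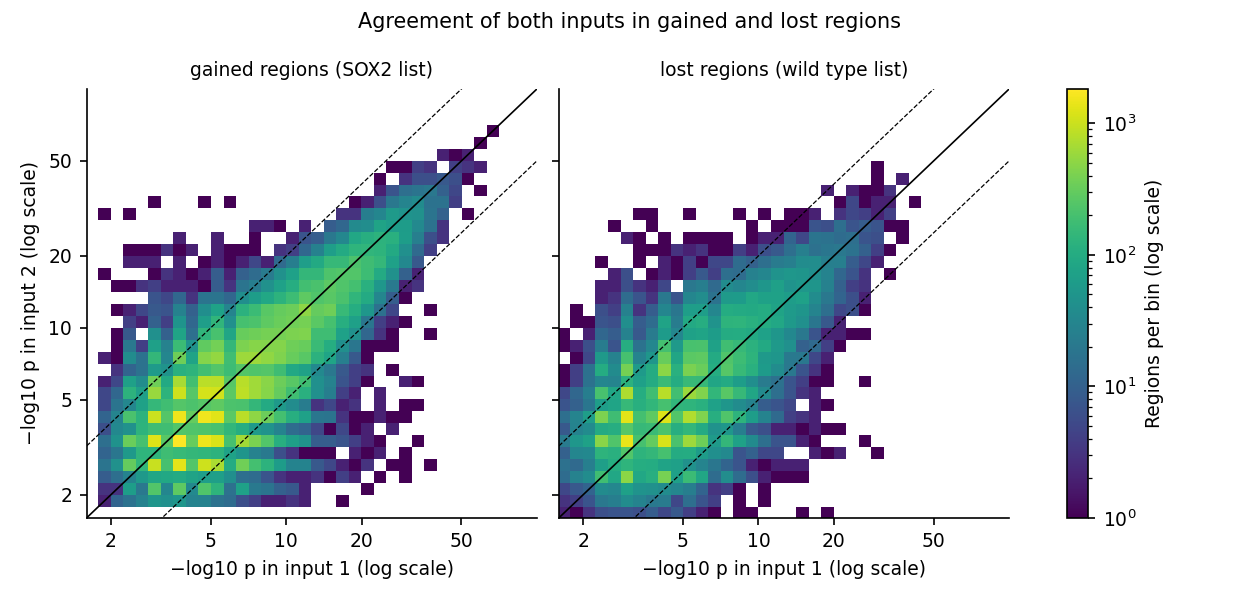
−log10 p in input 1 (x axis) and input 2 (y axis), both on log scales, for gained regions in the SOX2 list (left) and lost regions in the wild-type list (right). Colour gives the number of regions per bin on a log scale, the solid line equal values and the dashed lines a 2-fold difference. The cloud narrows toward high values, and gained regions reach 67.2 in the lower input while lost regions end at 38.1.

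The 12 strongest gained regions had values between 45.2 and 67.2 in the lower input and were 637 to 1152 bp wide. The highest lay within TRAPPC9, which encodes a subunit of a vesicle trafficking complex, at chr8:140156824-140157556 with values of 67.9 and 67.2. It was the only one of the 12 with a peak in a wild-type list taken as that of the FOXA2 experiment, in replicate 1. The next lay 603893 bp from TRPS1, the gene of a GATA-type transcriptional repressor, at chr8:114803611-114804603 (60.01 and 59.3). FBXL17, an F-box protein gene, held one at chr5:108100896-108101697 (53.6 and 54.7), SMCO4 one at chr11:93512048-93512807 (50.5 and 50.6), and LINGO2, a neuronal leucine-rich repeat protein gene, one at chr9:28317607-28318339 (56.7 and 46.8). In all, 4 of the 12 lay within a gene.

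The other 7 lay between genes. The region near NXPH1, which encodes a ligand of neurexins, was 53755 bp from the gene at chr7:8379218-8379854 (52.9 and 48.7). The region near CAAP1, an apoptosis regulator gene, was 323094 bp away at chr9:26516685-26517591 (47.8 and 49.6). The region near KCNS3, a potassium channel subunit gene, was 163720 bp away at chr2:18096678-18097600 (49.6 and 47.7). The region near OTOL1, the gene of an inner ear collagen, was 48212 bp away at chr3:161552154-161553305 (58.4 and 46.3). The region near TACR3, the neurokinin B receptor gene, was 160647 bp away at chr4:103880632-103881420 (46.1 and 47.3). The last 2 lay over 1 Mb from any protein-coding gene, at chr11:38835703-38836635 nearest to LRRC4C (52.1 and 45.7) and at chr11:97489140-97490160 nearest to JRKL (50.9 and 45.2). All 12 had an entry in the list of the fusion construct.

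The 8 strongest lost regions had lower values between 31.7 and 38.1. LRRC4C, which encodes a postsynaptic ligand of netrin G, held the strongest at chr11:40445058-40446063, with values of 38.1 and 41.0 in the wild-type inputs. TMEM232 held one at chr5:110478505-110479300 (34.9 and 39.1), and WWOX, a tumour suppressor gene across a fragile site, one at chr16:78967168-78968154 (40.4 and 33.7). Outside genes, the region 32236 bp from TP63, the gene of a p53-family regulator of epithelia, lay at chr3:189563636-189564510 (33.4 and 36.02). The region 35873 bp from S1PR1, a sphingosine-1-phosphate receptor gene, lay at chr1:101200459-101201026 (32.0 and 31.7). The others were 458050 bp from FBXO15, 305216 bp from PLA2G4A and 4884 bp from CHODL. All 8 had a peak in wild type replicate 1 of the FOXA2 experiment and 4 of them also in replicate 2. All 8 also had an entry in the list of the fusion construct.

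The SOX2 gene itself, at chr3:181711925-181714436, was open in both lists. Its start lay in a shared region at chr3:181710929-181712042, with values of 18.7 and 6.30 in the SOX2 inputs and 16.2 and 23.5 in the wild-type inputs. A further shared region at chr3:181712248-181713357 had 26.3 and 22.7 in the SOX2 inputs and 26.1 and 10.8 in the wild-type inputs. The values of the 2 lists overlapped in both regions. Reads from the construct and from the endogenous gene cannot be told apart in a peak list, so the gene checks no label. Within 50 kb, 4 gained regions lay on the side of lower coordinates, the strongest at chr3:181698931-181699681 (12.6 and 12.5), and 3 lost regions lay on the other side with values from 4.07 to 6.52.

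Gained regions were spread along the genome and made up a larger share of all regions on gene-poor chromosomes. Their number per Mb did not simply follow gene density. It was 25.7 on chromosome 4, 16.8 on chromosome 19 and 13.7 on chromosome 13, which had the fewest genes per Mb (2.96). The share of regions that were gained was highest on chromosome 4 (46.4%, interval 45.4 to 47.3%) and lowest on chromosome 19 (25.2%, 23.9 to 26.6%), the most gene-dense chromosome, with chromosome 17 next at 30.0% and chromosome 22 at 33.4%. Over the 23 chromosomes this share and the number of protein-coding genes per Mb had a Spearman correlation of -0.84 and a Pearson correlation of -0.89, given as a description since all come from the same pair of lists. Per 1 Mb window the median was 24 gained, 12 lost and 24 shared regions. The Spearman correlation with the number of genes in the window was -0.31 for gained, 0.32 for lost and 0.61 for shared regions over 2939 windows.

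**Figure D4:**
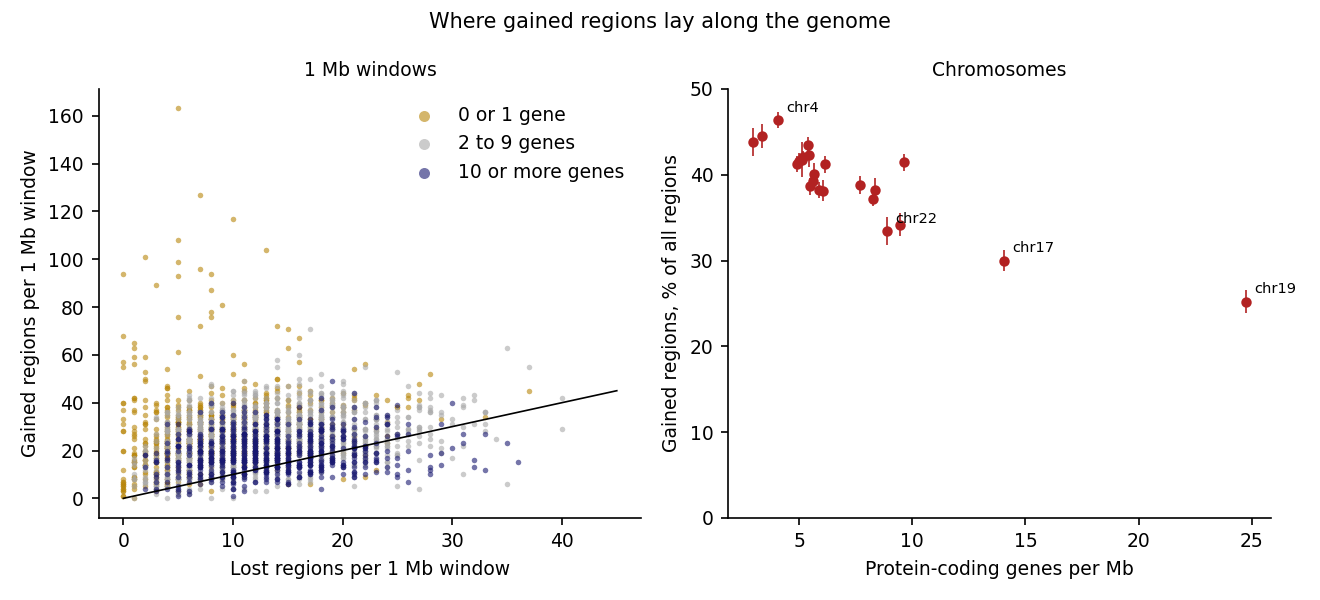
Left, gained (y axis) against lost (x axis) regions per 1 Mb window, coloured by the number of protein-coding genes in the window, with a line at equal numbers. Right, gained regions as a share of all regions (y axis, %) against protein-coding genes per Mb (x axis) for 23 chromosomes, with Wilson 95% intervals. Windows with 0 or 1 gene reach up to 163 gained regions, and chromosome 19 has the lowest share (25.2%).

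The densest windows held weak regions. The 2 highest were neighbours on chromosome 20, from 27 to 29 Mb, with 163 and 127 gained regions beside 5 and 7 lost ones. Next came 26 to 27 Mb of chromosome 19 (117 gained, 10 lost), 48 to 49 Mb of chromosome 5 (108 and 5) and 124 to 125 Mb of chromosome 1 (104 and 13). None of the 5 held a protein-coding gene. No filter for repeats or for regions prone to mapping artefacts was applied here. Whether these windows are such regions was not tested, so their counts need not stand for opened chromatin. On chromosome 20 from 27 to 28 Mb the median −log10 p of gained regions was 3.90. In the order given, 17.2%, 24.4%, 43.6%, 40.7% and 49.04% of the gained regions of these 5 windows had an entry in the fusion list, and 8.59%, 8.66%, 0%, 0% and 86.5% a peak in wild type replicate 2 of the FOXA2 experiment. All 30 windows with 60 or more gained regions together held 3.50% of gained, 0.727% of lost and 1.36% of shared regions. In them 21.1% of gained regions had a peak in that replicate, against 1.62% elsewhere, and 41.0% an entry in the fusion list, against 75.5% elsewhere. Without these windows 70066 regions were gained. The windows with most lost regions were 4 to 5 Mb of chromosome 7 (40 lost, 29 gained), 130 to 131 Mb of chromosome 8 (40 and 42), 52 to 53 Mb of chromosome 4 (37 and 55), 135 to 136 Mb of chromosome 8 (37 and 45) and 50 to 51 Mb of chromosome 20 (36 and 15).

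Gained regions had another gained region within 10 kb in 44.1% of cases, against 31.4% of lost and 48.2% of shared regions among their own. Gained regions are more numerous than lost ones, and among the 35759 strongest gained regions, as many as were lost, the share was 25.5%. This subset leaves out the weakest gained regions, so number and strength cannot be told apart in it. Runs of 5 or more gained regions, each within 10 kb of the next, numbered 436, the longest holding 33. Shared regions had 593 such runs, the longest of 27. Among as many of the strongest gained regions as there were lost ones there were 40 such runs, the longest of 15 regions, beside 45 of lost regions, the longest of 8. At these numbers fewer of the strongest gained regions than of lost regions had a near neighbour, while the longest gained run exceeded the longest lost one. Among as many of the strongest shared regions, 25.4% had a near neighbour. They formed 39 such runs, the longest of 21 regions.

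Of 19974 protein-coding genes, 41.1% held at least 1 gained region and 33.6% at least 1 lost region. DLG2, which encodes a postsynaptic scaffold protein, held the most, 98 gained beside 24 lost regions over 2173 kb. CTNNA3, an alpha catenin gene, held 78 and 22, PCDH15, a protocadherin gene of hair cells and photoreceptors, 73 and 14, and EYS, a photoreceptor matrix gene, 70 and 17. RBFOX1, a neuronal splicing factor gene, held 63 and 28, and NRXN3, a presynaptic neurexin gene, 60 and 22. All 6 were long, from 1698 to 2474 kb, and they held 2.55 to 4.51 gained regions per 100 kb.

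Gains with at most 1 loss were found in other genes. TCF12, the gene of an E protein that partners with tissue-specific helix-loop-helix factors, held 17 gained and 0 lost regions, EXOC4, an exocyst subunit gene, 27 and 1, and FAF1, a ubiquitin-binding factor gene, 23 and 1. CPNE8, a copine gene, and MAP2K5, a kinase gene of the ERK5 pathway, held 13 and 0 each, and HS3ST5, a heparan sulfate sulfotransferase gene, 11 and 0. These genes were picked for this pattern, so their counts are a description.

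Long genes held more gained relative to lost regions. Genes under 50 kb held 16.2 gained and 13.7 lost regions per Mb, those of 50 to 200 kb 22.9 and 12.03, those of 200 to 500 kb 26.4 and 12.8, and the 314 genes of 500 kb and over 27.1 and 10.9. Shared regions went the other way, from 59.2 per Mb in genes under 50 kb to 18.4 in the longest.

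Gene lists were described against this background. The median gene held 0 gained regions and the mean was 1.52. The 20 neuronal adhesion and synapse genes held 772 gained and 215 lost regions, all 20 with at least 1 of each and with a median of 42 gained. Their median length was 1236 kb against 24.2 kb for all genes, and they held 28.7 gained and 8.01 lost regions per Mb, against 27.1 and 10.9 in genes of 500 kb and over. Gained regions per lost region were 3.59 in the list and 2.47 in those genes. This ratio rose with gene length, from 1.18 in genes under 50 kb, and the list is not matched to those genes in length. The lists were chosen with earlier results of these data known, so these values are a description. Besides DLG2 and NRXN3, LRP1B, a giant lipoprotein receptor gene, held 49 gained and 7 lost regions, CTNNA2, a neural alpha catenin gene, 48 and 14, PTPRD, a synaptic receptor phosphatase gene, 43 and 21, and CNTN4, a contactin gene, 42 and 12.

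The 28 receptor tyrosine kinase genes held 194 gained and 107 lost regions, 23 of them with a gained region and 22 with a lost one, or 30.0 and 16.5 per Mb. Of all genes 41.1% and 33.6% held one, but the median length of this list was 167.9 kb against 24.2 kb. ERBB4, a neuregulin receptor gene, held 37 gained and 9 lost, ALK, a receptor kinase gene of developing neurons, 29 and 12, and EPHA3, an ephrin receptor gene, 19 and 3. Neural progenitor genes held 35 gained and 20 lost regions (8 and 6 of 22 genes), with GLI3 (13 gained, 7 lost) and GLI2 (9 and 1), the Hedgehog effectors, and CDH2 (6 and 8), N-cadherin, in front. Pluripotency genes held 11 and 7 (6 and 5 of 15 matched genes), with 3 gained in ESRRB, a nuclear receptor gene, and 2 each in LIN28B, an RNA-binding protein gene, and PRDM14, a germ cell and pluripotency repressor gene. The shares of members with a gained region in the neural progenitor and pluripotency lists were near the 41.1% of all genes.

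For the remaining lists the shares over all genes, 41.1% with a gained and 33.6% with a lost region, are the background, and their median lengths ran from 5.86 kb (housekeeping) through 10.4 kb (AP-1) and 22.02 kb (osteoblast and mesenchymal) to 51.2 kb (TEAD and YAP). Osteoblast and mesenchymal genes held nearly equal numbers, 19 gained and 18 lost, with 8 of 16 genes each way. CDH11, osteoblast cadherin, held 4 and 2, and RUNX2, the master regulator of osteoblasts, 2 and 3. TEAD and YAP pathway genes held 24 gained and 24 lost regions (9 and 8 of 14 genes), with 10 gained and 6 lost in TEAD1 and 4 of each in WWTR1, which encodes TAZ. AP-1 genes held 2 and 5 (1 and 4 of 12 genes), both gained ones in FOSL2. Housekeeping genes held 4 and 6 (3 and 5 of 14 genes). Among marker lists, mesenchymal and bone genes held 8 and 8, epithelial genes 7 and 5, haematopoietic genes 6 and 9 and hepatocyte genes 3 and 8. At their starts, all 3 mesenchymal markers with a start in the table (of 7) had a shared region. So did the 1 epithelial marker with a start (of 6), CLDN4. None of the 3 haematopoietic or 4 hepatocyte markers with a start had one. Of all genes with a start, 69.6% had a shared region within 1 kb, and these lists are small. Lost regions lay at the starts of RUNX3 and LCP1 in the haematopoietic list and of SERPINA1 in the hepatocyte list.

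Gene starts were seldom gained or lost. Of 15812 genes with a start in the table, 4.39% had a gained region within 1 kb and 5.55% a lost one, while 69.6% had a shared one. A gained region with neither a shared nor a lost one was found at 344 genes and a lost one alone at 364. Of the 8 lists, pluripotency, AP-1 and housekeeping genes had no gained and no lost region at a start, with 11 of 11 housekeeping starts shared.

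Among neural progenitor genes, FABP7, a fatty acid binding protein gene of radial glia, had a gained region 89 bp from its start (3.88 and 5.23). Lost regions lay at SOX21, a SOXB2 gene (9.64 and 7.69), at SOX3, a SOXB1 relative of SOX2 (7.27 and 4.12), and at PAX6, the eye and forebrain regulator (3.06 and 2.05). None of these 4 genes had a shared region at its start. ALPL, the bone alkaline phosphatase gene, had a weak gained region (3.88 and 3.54).

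Receptor and synapse genes with a gained or lost region at a start all had a shared region at a start too. EPHA4, an ephrin receptor gene, had a gained region over a start at chr2:221572056-221572604 (11.5 and 13.4), next to a shared region with values of 24.7 and 20.4. EPHA5 had a gained region 992 bp from a start (6.03 and 4.78) and a lost one near another (5.26 and 5.83). EPHB2 had both a gained (3.71 and 3.16) and a lost region (4.41 and 4.50). CTNNA2 had a gained region at an inner start (5.53 and 8.09). Lost regions lay over an inner start of ALK (11.3 and 9.19) and near inner starts of PTPRD (6.15 and 7.69), CNTN4 (7.27 and 6.52) and DLG2 (3.75 and 4.40). In the TEAD and YAP list, AXL, a receptor kinase gene and YAP target, had a lost region over a start at chr19:41218597-41219504 (11.3 and 13.7). LATS2, the kinase that restrains YAP, had a weak lost region (3.23 and 2.49), ANKRD1, a YAP target, a weak gained one (2.99 and 2.55), and TEAD2 one of each (3.56 and 6.87 gained, 3.06 and 3.86 lost). Each of these 4 genes had a shared region at a start as well. The shared region of ANKRD1 had values of 22.99 and 16.6 in the SOX2 inputs and 43.7 and 33.4 in the wild-type inputs.

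Motif letters were counted in promoters of 300 bases, 250 before and 50 after a start. The gained set held 362 promoters of 334 genes, the lost set 393 of 360 genes, and the shared set 13535 of 10591 genes. The SOX motif (AACAATG or AACAAAG, either strand) was held by 13.3% of gained promoters (interval 10.1 to 17.1%), 8.14% of lost (5.83 to 11.3%), 4.64% of shared (4.30 to 5.01%) and 9.58% of promoters with no region, against 6.59% of all 22132. The same letters turned round without complementing (GTAACAA or GAAACAA) were held by 9.94%, 7.89%, 3.71% and 7.78%, and 5.33% of all. These reversed letters keep the run AACAA of the motif, so the 2 counts are not of unrelated words. The intervals of gained and lost promoters overlapped. The gained share depended on the call rule: it was 23.5% where the region passed the IDR limit and the other list had no entry, 8.36% with a minimum of 5 in input 1, 5.38% with both lists limited by IDR (lost 5.96%) and 6.62% with a minimum of 5 in input 2 (lost 7.79%), so the order of gained and lost turned under the latter 2. Base composition moved with this result: the median GC content was 54.3% in gained, 58.0% in lost and 66.3% in shared promoters, and 53.0% where there was no region.

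Strong gained promoters held the motif most. Of the 26 gained promoters with a region of 10 or more, 12 held it, a share of 46.2% (interval 28.8 to 64.5%), and 5 held the reversed letters, 19.2% (8.51 to 37.9%). This class joins those of 10 to 20 (10 of 22 held the motif) and of 20 and over (2 of 4), and was joined after their values were seen. The gained shares were 9.69% under 5 and 12.8% from 5 to 10. None of 18 lost promoters of 10 or more held it (up to 17.6% within the interval), and 4.44% of 10693 shared ones did. The strong gained promoters had a median GC content of 41.8%. Promoters with no region and a GC content within their quartiles, from 37.1 to 47.3%, held the motif in 14.9% of 1944 cases (13.4 to 16.6%), and shared ones in that range in 16.04% of 480 (13.03 to 19.6%). The share in strong gained promoters lay above both intervals, on 26 promoters.

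**Figure D5:**
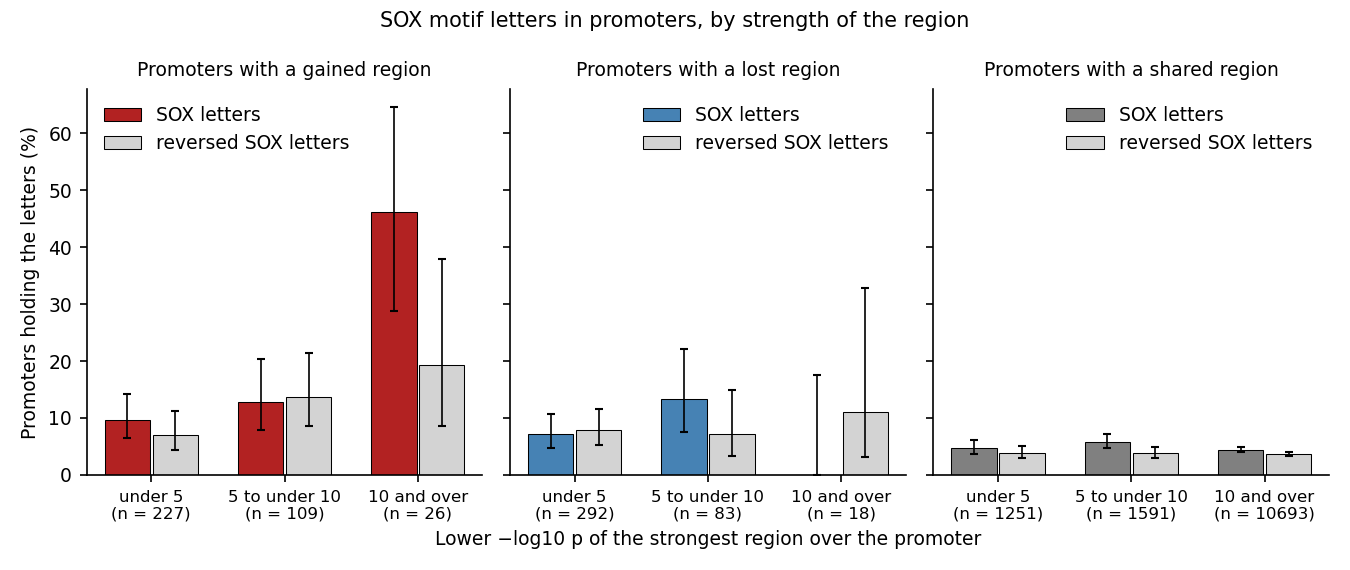
Share of promoters (y axis, %) holding the SOX motif letters (coloured) or the reversed letters (pale), by the −log10 p of the strongest region over the promoter (x axis), for promoters with a gained, a lost or a shared region. Error bars are Wilson 95% intervals and n the number of promoters. The gained bar at 10 and over stands at 46.2%, and the lost bar there is at 0.

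Other motifs were counted in the same promoters. The AP-1 letters TGAGTCA were held by 10.5% of gained (7.74 to 14.1%), 12.5% of lost (9.56 to 16.1%) and 3.44% of shared promoters, against 4.01% of all. TEAD letters (GGAATGT) were held by 4.42% of gained and 6.87% of lost promoters, RUNX letters (TGTGGTT) by 4.42% and 7.63%, FOX letters (TGTTTAC) by 3.87% and 3.82%, and the octamer ATGCAAAT, read by POU factors, by 1.38% and 1.53%. In shared promoters these 4 were held by 1.82%, 2.63%, 2.26% and 1.22%, and in all promoters by 2.69%, 3.70%, 2.85% and 1.65%. For each of these 4 the intervals of gained and lost promoters overlapped. Shared promoters held the GC box GGGGCGG in 52.7% of cases, against 27.9% of gained and 25.7% of lost promoters and 39.6% of all. They held the ETS letters ACTTCCGG in 8.19%, against 2.49% and 0.509%, with 5.35% of all, and the CTCF core AGGGGGC in 20.9%, against 12.4% and 15.3%, with 17.5% of all. A match of letters is a description and shows no binding.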

How the data were processed

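Peak lists of 4 ATAC-seq samples in 2 groups were compared, with 3 further lists of the series used as independent lists. Per the submitters' processing notes, FastQC 0.10.1, Trim Galore, Bowtie2 2.4.4, SAMtools 0.1.18, MACS2 and deepTools 2.4.1 were used with build hg38, and roles, parameters and the handling of duplicates are not given in the sources used here. The deposited −log10 p values of each entry are those of both inputs and their lower one, and they depend on depth, which is unknown. The deposited score restates the global IDR, which was read from its −log10 value. It was tested on the lists that the entry's −log10 p is the lower of both inputs in 100% of entries.

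Entries on chromosomes 1 to 22 and X were kept at any IDR (97.8% and 97.5% of entries, 2 mitochondrial ones left out in each list) and merged where they shared 1 bp. Genes came from RefSeq tables on GRCh38.p14. The genes table gives no strand, so starts came from the promoter table, which covers 15812 of 19974 protein-coding genes (79.2%) and none on chromosome 8. Regions outside genes were named by the nearest gene boundary. Of 16 pluripotency genes 15 were matched. Motif counts around peak summits had been planned, but no genome of the build was used here, so promoters of 300 bases stood in. A promoter counted as gained, lost or shared by the regions over it, and 2 with both a gained and a lost region were left out. The reversed letters have the base composition of the motif but also keep its run AACAA. They are therefore no control of base composition alone. Named were the 12 gained and 8 lost regions with the highest lower input, the 6 genes with most gained regions, the 6 with most gained per lost region (at least 10 gained), list members with a region at a start, up to 3 members per list with most gained regions, and the 5 windows with most gained and most lost regions. One list member that this rule names is not reported here. Members and lists were chosen with earlier results of these data known.

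Merging and counting scripts were tested on simulated data. Python 3.11.15, pandas 2.3.3, numpy 2.4.6, scipy 1.17.1 and matplotlib 3.10.9 were used. Alternatives were entries limited by IDR, equal numbers of entries, an overlap of 50%, a minimum in either input, and other start distances.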

Additional observations from a re-analysis of the deposited data

How the results depend on the processing

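Of 62 recomputed values, 30 stayed within 1.5 times the main count or within its spread and 32 moved. With entries at a global IDR of at most 0.05 in both lists, 34965 regions were gained and 17500 lost, 4.44% and 6.55% of them lay at a gene start, 5.58% and 13.9% had peaks in the other wild-type lists, and 5.38% of gained promoters held a SOX motif. With such an entry in 1 list and none at any IDR in the other, the values were 21925 and 5982 regions, 0.678% and 1.91% at a start, 7.31% of lost regions in the other wild-type lists and 23.5% of gained promoters with a motif. At equal numbers of entries they were 47459 gained regions, 0.899% and 3.78% at a start and 3.85% of lost regions in the other wild-type lists. With a −log10 p of at least 5 in input 1, 1.85% and 4.10% lay at a start, 2.70% and 6.19% had peaks in the other wild-type lists, and 8.36% of gained promoters held a motif. With at least 5 in input 2 these values were 2.37%, 3.57%, 2.69%, 6.14% and 6.62%. Within 5 kb of a start lay 3.88% of gained and 7.53% of lost regions, and within 1 kb of either boundary of a gene, chromosome 8 included, 2.01% and 4.12%. Counting any peak of the other wild-type lists gave 4.49% of lost regions. Gained regions outnumbered lost ones under each other alternative tried, while at equal numbers, where 47047 regions were lost, the balance is fixed by construction. At gene starts the share of gained regions was below that of lost ones in each, and the order of gained and lost promoters with a motif turned for entries limited by IDR in both lists (5.38% against 5.96%) and for input 2 (6.62% against 7.79%). The causes were not tested.

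The alternatives without dense windows and with either gene boundary were chosen after seeing the data. A motif window of 500 bp around the summit was not run. No paired analysis was possible because each group had 1 list. For the same reason no sample was left out. Depth is unknown. A −log10 p under 5 was found in 39451 of the gained and 24853 of the lost regions.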
